A study of Mus musculus with 2 samples.

Results

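The genes Mir218-1 and Mir218-2 encode miR-218, a microRNA known for its enrichment in motor neurons, and lie in introns of the axon guidance genes Slit2 and Slit3. They are 2 of the 1973 microRNA genes in the tables. They were chosen by symbol and not by a cut on any measured value, though earlier results of these data were known. Small RNAs were sequenced from total RNA of the whole hindbrain of newborn mice of strain B6NCrl on postnatal day 0, with a labelled size range under 30 nt. The single group holds 2 libraries, each from the hindbrain of 1 pup (pup 1 and pup 3 in the labels), whose sex was not collected. No condition was compared, and the design gives the level of each gene and how far the libraries of the pups differed.

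A microRNA is cut from a hairpin precursor, and either arm of the hairpin can yield a mature strand of about the length of the sequenced RNAs. The mature strand guides a silencing complex to messenger RNAs that pair with its seed, bases 2 to 8. The secreted Slit proteins act through Robo receptors and repel growing axons, and the hindbrain contains the motor nuclei of cranial nerves. In motor neurons miR-218 is known to repress transcripts of other neuron types, and mice without it have failing neuromuscular junctions.

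The hairpins show which reads can be told apart between the genes. Both are 110 nt long (RefSeq, GRCm38.p6) and lie on the plus strand. Capitals mark the longest stretch they share, which spans hairpin positions 25 to 46 in both.
Mir218-1 hairpin: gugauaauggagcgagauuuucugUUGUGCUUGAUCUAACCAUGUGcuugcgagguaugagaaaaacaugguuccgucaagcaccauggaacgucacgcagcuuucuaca
Mir218-2 hairpin: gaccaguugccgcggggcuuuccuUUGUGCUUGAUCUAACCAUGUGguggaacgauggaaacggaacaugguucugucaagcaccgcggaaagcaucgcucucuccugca

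The mature strands follow, because the 5′ arm is the same at both genes and the 3′ arms differ. Capitals mark the seed.
miR-218-5p, from both genes: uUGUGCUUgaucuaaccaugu
miR-218-1-3p, from Mir218-1: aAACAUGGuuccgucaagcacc
miR-218-2-3p, from Mir218-2: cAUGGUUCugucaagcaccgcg

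The mature miR-218-5p is 21 nt long and lies wholly inside the shared stretch of 22 nt. That stretch starts with the first base of miR-218-5p and runs 1 base past its last base. A read of miR-218-5p therefore matches both genes equally well, and only a read that reaches at least 1 base before or 2 bases after it can tell them apart. Among 141767 spliced transcripts of GENCODE M21, the shared stretch occurs in the transcripts of these 2 genes and of no other gene, searched on both strands. By the layout of the tables, reads that match several loci were not assigned to any gene. The counts below thus leave out reads that hold only miR-218-5p, and they give no level for that strand.

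The 3′ arms do separate the genes. miR-218-1-3p and miR-218-2-3p are each 22 nt long, and their annotated starts lie 3 positions apart in the hairpin, at 64 and 67. In the 19 positions that both arms cover, 18 bases are identical and 1 differs, C12U counted from the first base of miR-218-1-3p. The longest run that either 3′ arm shares with the other hairpin is 10 nt. Because of the shifted start, the 3′ arms have different seeds. The seed of miR-218-5p also occurs in miR-7002-3p, and that of miR-218-1-3p in miR-496b. Their genes Mir7002 and Mir496b had 0 counts in both pups, which allows up to 1.22 CPM in pup 1 and 0.996 CPM in pup 3. CPM are counts scaled to a library total of 1000000 counts on microRNA genes, and this upper limit is 3 counts. Over the whole hairpins, 71 of 110 positions carry the same base (64.5%).

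**Figure D1:**
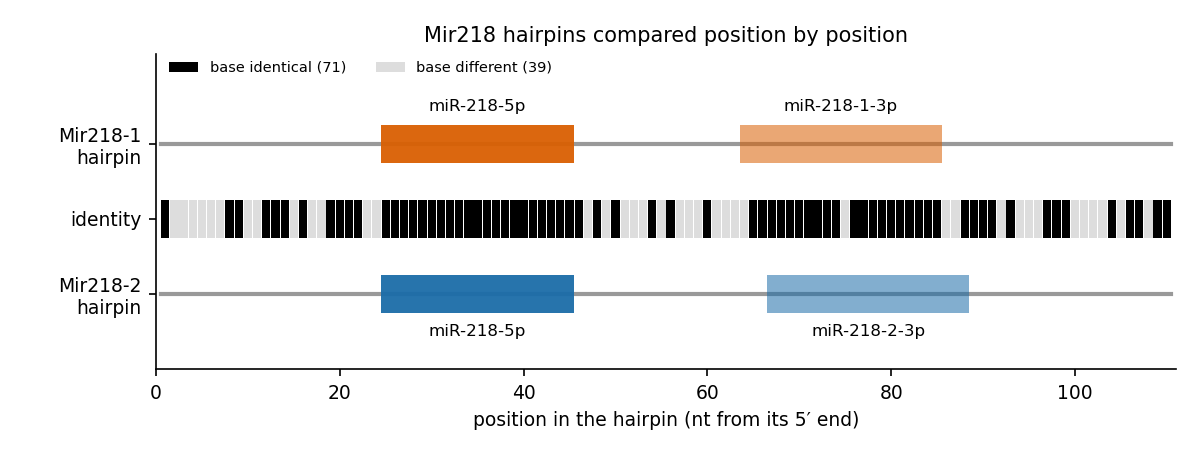
Mir218-1 and Mir218-2 hairpins drawn along their 110 positions (x axis, nt from the 5′ end), with the mature strands as boxes and, between them, black bars where both hairpins carry the same base and grey bars where they differ. The unbroken black block over miR-218-5p covers positions 25 to 46, while the 3′ strands start at 64 and 67 and are interrupted by a single grey bar where they overlap.

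Both genes sit at the same place in the exon structure of their hosts. Mir218-1 (ENSMUSG00000065603.1) lies at chr5:48223942-48224051 (mm10) in intron 14 of Slit2, between exons 14 and 15 of the 36 exons of the principal transcript. Mir218-2 (ENSMUSG00000065583.1) lies at chr11:35616816-35616925 in intron 14 of Slit3, whose principal transcript also has 36 exons. Both are on the strand of their host, and no exon of any annotated transcript of the host overlaps either hairpin. The exons on either side have equal lengths in the hosts, 164 bases for exon 14 and 151 bases for exon 15. The introns differ in length, 4572 bases in Slit2 and 9571 bases in Slit3. Mir218-1 begins 3861 bases after exon 14 and ends 601 bases before exon 15, while Mir218-2 begins 4379 bases after exon 14 and ends 5082 bases before exon 15.

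From the start of the principal transcript, Mir218-1 is 241 kb away and Mir218-2 is 496 kb away. GENCODE M21 also lists a non-coding Slit2 transcript (ENSMUST00000172824.7) that starts 471 bases before Mir218-1 and contains it. For Mir218-2, the nearest annotated start upstream in Slit3 is 72131 bases away, and that transcript ends before the hairpin. Slit1, the other gene of the family, holds no microRNA gene of the tables, and Slit2 and Slit3 hold 1 each. Messenger RNA was not measured in these libraries, so the level of the hosts is not known here.

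**Figure D2:**
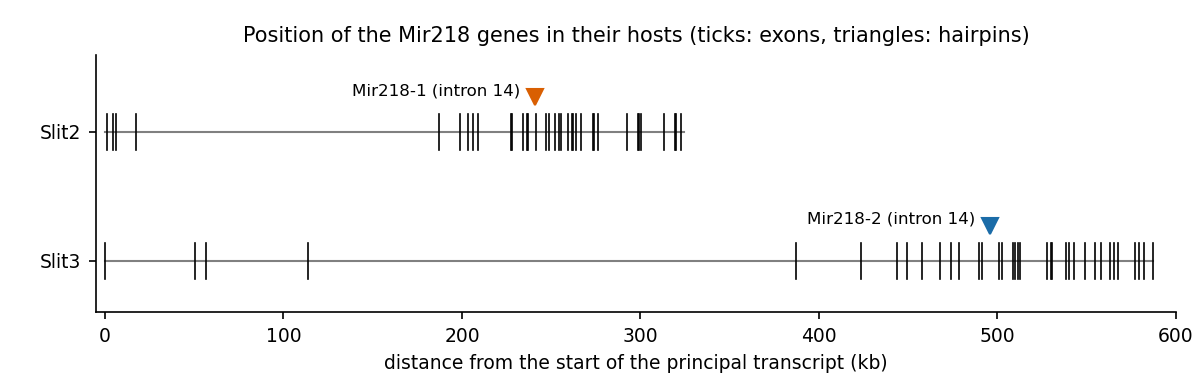
Principal transcripts of Slit2 and Slit3 drawn to scale from their start (x axis, kb), with exons as vertical ticks and the Mir218 hairpins as triangles. Mir218-1 lies 241 kb and Mir218-2 496 kb from the start, both between exons 14 and 15 of 36.

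The libraries held 2459757 (pup 1) and 3012320 (pup 3) same-strand counts on microRNA genes. Reads that matched several loci made up 40.2% and 42.0% of all reads. A count was present for 699 of the 1973 genes in at least 1 pup. Mir10a and Mir10b, microRNAs of the Hox clusters known from hindbrain and spinal cord, summed to 56575 CPM in pup 1 and 33740 CPM in pup 3. No other tissue was measured, so these values do not test the tissue label.

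Mir218-2 had several times the counts of Mir218-1 in both pups. Mir218-1 was counted 81 times in pup 1 and 105 times in pup 3, or 32.9 CPM (95% Clopper-Pearson interval 26.2 to 40.9) and 34.9 CPM (28.5 to 42.2). The pups were thus close to each other, and each interval contains the value of the other pup. The mean was 33.9 ± 1.36 CPM (SD, n = 2). Mir218-2 was counted 533 times in pup 1 and 547 times in pup 3, or 217 CPM (interval 199 to 236) and 182 CPM (167 to 197). Pup 1 was the higher here, and the intervals of the pups do not overlap. The mean was 199 ± 24.8 CPM (SD, n = 2). All intervals treat each read as an independent count and cover counting error only. They would be too narrow if some reads were amplified copies of the same molecule. Neither gene had a read on the opposite strand in either pup.

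The higher level of Mir218-2 was far outside counting error. It had 6.58 times the counts of Mir218-1 in pup 1 (95% Clopper-Pearson interval 5.20 to 8.42) and 5.21 times in pup 3 (4.22 to 6.48). Both hairpins have the same length, so the ratio is the same per length. It concerns the reads that can be assigned to 1 gene, and what part of them came from the 3′ arms or from longer forms of the 5′ arm cannot be read from counts per gene. Together the genes held 614 counts in pup 1 and 652 in pup 3, or 233 ± 23.5 CPM (SD, n = 2) and 0.0233% of all counts. Reads that matched several loci numbered 2337021 and 3015969, and how many of these were miR-218-5p was not tested.

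The split between the genes was similar in the pups. Mir218-1 held 13.2% of the pair's counts in pup 1 (interval 10.6% to 16.1%) and 16.1% in pup 3 (13.4% to 19.2%). The share was higher in pup 3 by 2.91 percentage points, and the intervals overlap. Fisher's exact test (two-sided) on the 4 counts gave p = 0.153, with an odds ratio of 1.26 (95% interval 0.913 to 1.75) for pup 3 against pup 1. A difference in the split was therefore not detectable at this depth, and the interval allows odds up to 1.75 times higher in pup 3.

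**Figure D3:**
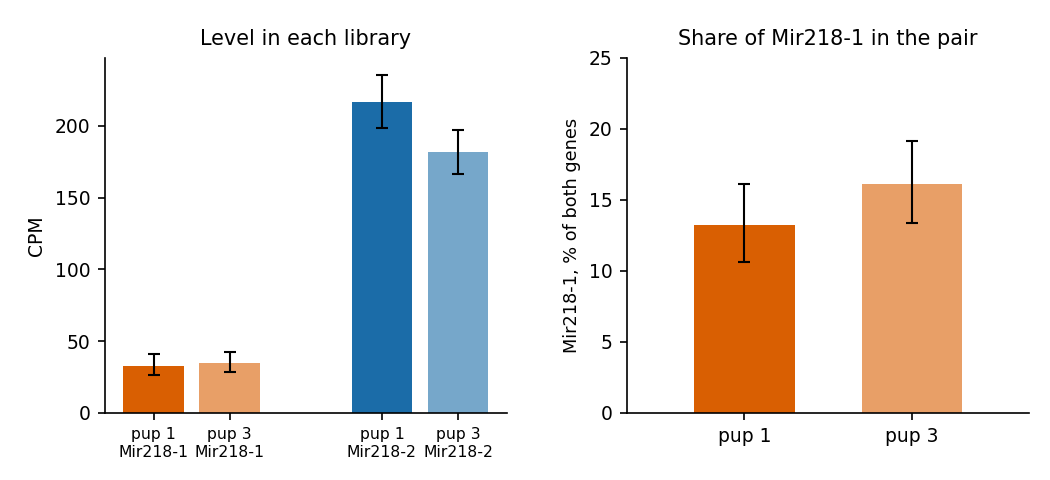
Left, CPM of Mir218-1 and Mir218-2 in pup 1 and pup 3 (y axis from 0). Right, the share of Mir218-1 in the counts of both genes. Bars are single libraries and whiskers are 95% Clopper-Pearson intervals. Mir218-2 stands at 217 and 182 CPM against 32.9 and 34.9 CPM for Mir218-1, whose share is 13.2% and 16.1%.

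Compared gene by gene, Mir218-2 was lower in pup 3 beyond counting error, and Mir218-1 did not pass the test. After scaling of the totals by TMM (edgeR), the log2 fold of pup 3 over pup 1 was -0.31 for Mir218-2 (counting interval -0.48 to -0.13), with a Benjamini-Hochberg adjusted p = 0.00130 in an exact binomial test over the 395 genes that reached 10 counts in at least 1 pup. For Mir218-1 it was 0.027 (counting interval -0.40 to 0.47, adjusted p = 0.981, same exact test). The interval of Mir218-1 contains the fold of Mir218-2, and the test of the split above, which asks whether the genes differed between the pups to unequal degrees, did not pass (p = 0.153, Fisher's exact test). This test called 185 of 395 genes, or 46.8%, and 21.3% of the genes were called lower in pup 3 as Mir218-2 was. A call on 1 of the 2 Mir218 genes is near that background.

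The difference at Mir218-2 was no larger than the spread usual between these pups. The common biological coefficient of variation over 361 genes was 16.5%, so log2 folds of 1 pup over another would have an SD of 0.34, and the fold of Mir218-2 was -0.91 of that SD. Of the 395 genes, 61.8% had a smaller absolute fold than Mir218-2 and 7.09% a smaller one than Mir218-1. With this spread in place of counting error alone, edgeR's exact test gave an adjusted p = 1 for Mir218-1 and for Mir218-2. It called 2 of the 395 genes, or 0.506%, and 23 genes had an unadjusted p under 0.05. Each pup has 1 library, so differences between animals cannot be told apart from differences between library preparations. The spread between pups holds both. With 1 library per pup, no residual degrees of freedom were left for edgeR's quasi-likelihood test. The coefficient of variation came from the same libraries that edgeR's exact test compared. Its low number of calls is thus largely built in and does not measure how alike the pups were.

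In the order of all genes by mean CPM, Mir218-2 ranked 191 and Mir218-1 ranked 273 of 699 genes with a count. Mir218-2 was above 72.7% and Mir218-1 above 60.9% of those genes. Mir218-2 ranked 181 in pup 1 and 199 in pup 3, and Mir218-1 ranked 272 and 271. The neighbours of Mir218-2 in the order were Mir223, a microRNA of myeloid cells, at 199 ± 42.6 CPM and Mir190a at 194 ± 35.9 CPM (SD, n = 2), and neither differs from it beyond the spread of the pups. In all, 25 other genes had a range over the pups that overlaps the range of Mir218-2. The neighbours of Mir218-1 were Mir30c-2 at 36.1 ± 1.57 CPM and Mir3547 at 31.9 ± 0.932 CPM (SD, n = 2). Their ranges do not overlap that of Mir218-1, though both lie inside its counting intervals, and 6 other genes had a range that does overlap.

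The genes most like each member were found by the distance of log2(CPM + 1) over the 2 libraries. For Mir218-1 they were Mir30c-2 (distance 0.12), Mir679 (0.15) and Mir3547 (0.16). For Mir218-2 they were Mir30b (0.15), Mir145a (0.15) and Mir668 (0.20). Mir30b had the same 533 counts as Mir218-2 in pup 1 and 606 against 547 in pup 3. With 2 libraries this measure says little beyond the level itself.

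Other microRNAs encoded at 2 loci show how common such a split is. In the RefSeq table, 25 gene pairs named -1 and -2 have an identical mature strand found at no other gene and a row for both genes, and 19 of them had at least 10 counts in each pup. In each of the 19, 1 arm is identical, and the longest stretch the hairpins share runs from 22 nt to 28 nt. The Mir218 pair has the shortest value, as have 3 others. In every pair, reads that hold only the identical strand match both genes and enter no count. The shares and sums below thus cover reads assigned to 1 gene and give no level of the shared strand. The larger gene held between 49.4% and 99.2% of a pair's counts (mean of the pups), with a median of 79.9%. Mir218-2, with 85.4%, was the 7th highest of the 19 shares, so 12 pairs were split more evenly and 6 less evenly.

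The shares nearest to that of the Mir218 pair belonged to Mir16-1 (82.3% of the Mir16 pair), Mir219a-2 (88.8% of the Mir219a pair, oligodendrocyte microRNAs) and Mir19b-1 (81.3% of the Mir19b pair). The extremes were Mir194-2 with 99.2% and Mir450-1 with 49.4%. The summed level of the Mir218 pair, 233 CPM, was the 12th of 19, below the median of 602 CPM. The share of Mir218-2 moved by 2.91 points between the pups, against a median absolute move of 1.96 points over the 19 pairs. In 18 of the 19 pairs the larger gene held most counts in both pups. The larger gene was named from the mean of these same pups, so this is in part set by its definition.

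**Figure D4:**
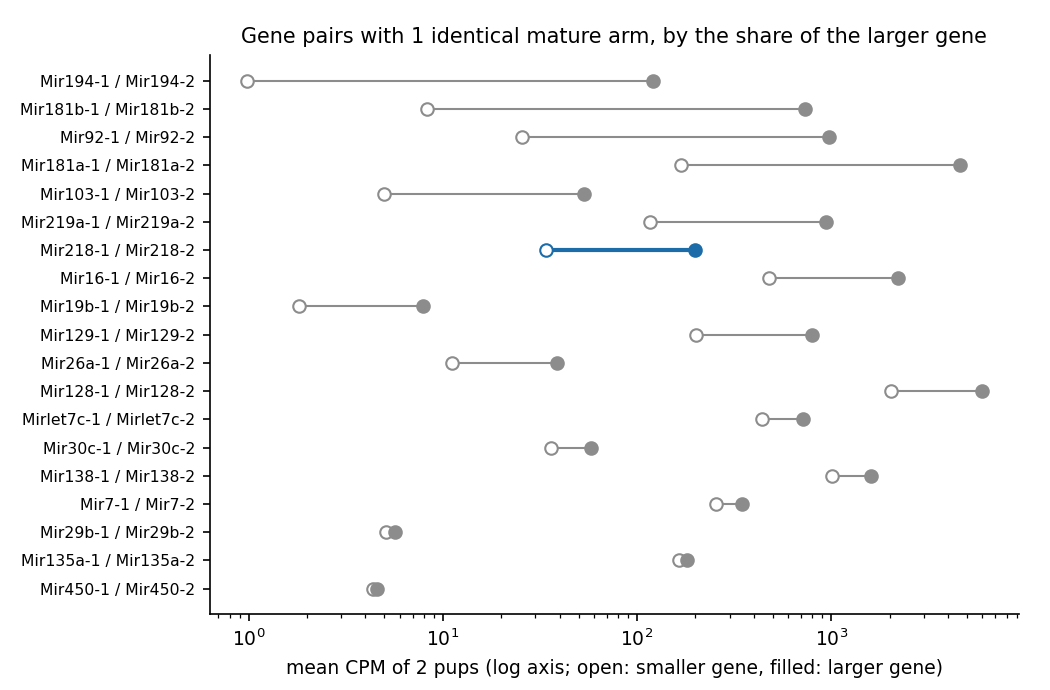
Mean CPM of both genes (log x axis) in 19 pairs of microRNA genes that encode 1 identical mature strand, ordered from top to bottom by the share of the larger gene. Open circles are the smaller and filled circles the larger gene. The Mir218 pair, in blue, is the 7th from the top, with 33.9 CPM for Mir218-1 and 199 CPM for Mir218-2.

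Other microRNAs with described roles in motor neurons were set beside the Mir218 genes. Of 15 genes listed, 14 were in the tables (Mir9-1 was not analysed here), 13 had a count and 10 reached 10 CPM in both pups. The highest were 3 members of the Mir17-92 cluster, which acts in the survival of limb motor neurons, with Mir17 at 10724 ± 1354 CPM, Mir20a at 4868 ± 239 CPM and Mir18 at 2726 ± 312 CPM (SD, n = 2). Mir375, a microRNA of endocrine cells that is also induced in motor neuron progenitors, had 512 ± 24.3 CPM, and Mir27b, which acts on Hoxa5 in spinal motor neurons, had 1110 ± 203 CPM (SD, n = 2). In assigned counts, both lie above the 199 CPM of Mir218-2. Mir27a, at 203 ± 51.6 CPM (SD, n = 2), does not differ from Mir218-2 beyond the spread of the pups. The value of Mir218-2 leaves out reads of the mature strand that the Mir218 genes share. These comparisons thus cover counted reads only and do not rank the microRNAs themselves. The same limit applies to any listed gene that shares a mature strand with another gene. The genes of miR-196, a microRNA of caudal Hox clusters, had few counts, with 0 for Mir196a-1 in both pups, 6 and 10 for Mir196a-2 and 43 and 42 for Mir196b. Mir196a-1 and Mir196a-2 encode an identical miR-196a-5p, whose reads match both genes and enter no count, so their counts give no level for that strand.

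Between the pups, 12 genes of this list were tested by the exact binomial test, of which 4 were higher in pup 3, 5 were lower and 3 did not pass, against 46.8% called over all genes. The median log2 fold of the 12 was -0.12, beside 0.020 over all 395 genes. Among called genes, the largest folds each way were those of Mir19a (0.69, from 70 counts in pup 1 and 144 in pup 3) and Mir9-3 (-0.33, from 1289 and 1303 counts). With plain totals or all reads as the scale, 3 rather than 5 were lower. By edgeR's exact test with the spread between pups, 0 of the 12 passed.

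Markers of other cell types were present in these whole-tissue libraries. miR-218 is also known from tissues outside the nervous system in which the Slit genes are active. Smooth muscle microRNAs (Mir143 and Mir145a) summed to 7629 and 9720 CPM in pups 1 and 3, nearly all of it Mir143, while Mir145a had 207 and 200 CPM. Endothelial Mir126a had 34216 and 36931 CPM, and liver Mir122 had 41.9 and 45.5 CPM. Among the markers, Mir10a (log2 fold -0.65) and Mir10b (-1.09) were called lower in pup 3 by the exact binomial test, as Mir218-2 was. Mir138-1, Mir138-2, Mir9-3 and Mir451a, described below, were also called lower, so this was not particular to the Mir10 genes. Markers called higher were Mir126a (log2 fold 0.057), Mir143 (0.31), Mir206 (0.29) and, described below, Mir137, Mir128-1, Mir128-2 and Mir144. Over all 395 genes, 21.3% were called lower. The 8 striated muscle genes analysed, 5 of them with a count, summed to 117 and 148 CPM. Mir206 alone made up 98.4 and 125 CPM of this, while Mir1a-1, Mir133a-1 and Mir133a-2 had 0 counts in both pups. The microRNAs of these 3 genes are known to be encoded at more than 1 locus, so reads of their mature strands can be left out of the counts and the zeros show no absence. Red blood cell markers moved in opposite directions. Mir144 went from 17.1 CPM in pup 1 to 67.1 CPM in pup 3 (a log2 fold of 1.91), and Mir451a from 134 to 37.5 CPM (-1.88). These were the 2 genes that edgeR's exact test called. Of 10 neuronal genes analysed, all had a count. Mir124a-1, Mir124a-2, Mir124a-3 and Mir9-2 had 17 counts or fewer in each pup. Reads of a mature strand shared between such related genes can be left out, so these low counts show no low level. The 10 genes summed to 22555 and 24424 CPM, of which Mir137 alone made up 11588 and 13229 CPM. Of the 7 tested by the exact binomial test, Mir137, Mir128-1 and Mir128-2 were higher in pup 3, Mir138-1 (log2 fold -0.85), Mir138-2 (-0.72) and Mir9-3 (-0.33) were lower, and 1 did not pass. The same test called 46.8% of all 395 genes. It covers counting error only, so genes with many counts pass at small folds, as Mir137 did (log2 fold 0.14). By edgeR's exact test, 0 of the 7 passed. The part of any of these cell types in the Mir218 counts was not tested. In bulk tissue, fewer cells of a type and less RNA per cell cannot be told apart.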

How the data were processed

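MicroRNA-seq libraries from 2 newborn mouse hindbrains were analysed. For each, the authors deposited raw read counts per microRNA gene, made on mm10 with GENCODE M4, as the deposited file listings state. The aligner and the adapter trimming were not given in the sources used here. No source describes the 3 columns: their meaning (either, same and opposite strand) and that of the 4 rows naming no gene were inferred from the layout. The same-strand column was used. Symbols and coordinates came from GENCODE M21 (mm10), which matched 1894 of 1973 identifiers, and sequences from RefSeq (GRCm38.p6), where 869 of 1005 hairpins matched a row.

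CPM used the same-strand total over genes. Unmapped, multimapped and unassigned reads (13.7%, 40.2% and 3.79% of reads in pup 1; 12.4%, 42.0% and 3.63% in pup 3) were left out. Folds used a prior of 0.5 counts and TMM totals over all genes (edgeR 4.0.16, R 4.3.3); exact tests and intervals used scipy 1.17.1, threshold 0.05 after Benjamini-Hochberg adjustment over all tested genes. The binomial test compares 2 libraries, not conditions. It was run on simulated counts that held counting error only, so that check does not cover spread between pups. Alternatives were other totals, filters, priors, columns, edgeR's exact test and each pup alone. Named genes were the members, the 3 nearest genes to each, microRNA genes inside Slit genes, two-locus pairs (the 3 nearest in share and the extremes) and the highest and most changed genes of the motor neuron list. Mir27a, Mir27b, Mir375 and the Mir196 genes of that list, and the rank neighbours, were added after their values were seen. Members and lists were chosen with earlier results of these data known.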

Additional observations from a re-analysis of the deposited data

Results flagged for a closer look

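Reads that matched several loci, which enter no gene's count, numbered 2337021 in pup 1 and 3015969 in pup 3. These are totals of whole libraries and not of miR-218. They amount to 3806 reads for each counted Mir218 read in pup 1 and 4626 in pup 3, which gives no level of miR-218. How many of them were miR-218-5p was not tested. With 2 libraries in a group, no test for a library that stands apart was possible.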

How the results depend on the processing

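Over all reads of the tables in place of counts on microRNA genes, the mean level was 14.3 CPM for Mir218-1, 84.0 CPM for Mir218-2 and 98.2 CPM for both; the larger denominator sets this change. Each pup alone gave 32.9 to 34.9 CPM for Mir218-1, 182 to 217 CPM for Mir218-2, 216 to 250 CPM for both and a Mir218-1 share of 13.2% to 16.1%. The fold of Mir218-2 was between -0.38 and -0.25 and stayed called in all settings except edgeR's exact test with the spread between pups (log2 fold -0.31, adjusted p = 1), which called 2 genes against 177 to 196 elsewhere. The uncalled fold of Mir218-1 changed sign with at least 10 counts in both libraries (-0.0042) and with TMM over the tested genes, chosen after seeing the data (-0.048). That scaling put the median fold of all tested genes at -0.055, against 0.073 with plain totals, and 76 of 181 called genes were then higher, against 101 of 185. Mir218-1 ranked 284 by the either-strand column and 271 to 272 in single pups. With all pups in 1 group, no paired analysis was possible because there is no second group to pair. With 81 and 105 counts, the counting interval of the Mir218-1 fold is wide (-0.40 to 0.47).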
